A study of Mus musculus with 6 samples.

Results

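Semaphorins, ephrins, Slits and netrins are the ligands that steer growing axons, and plexins, neuropilins, Eph receptors, Robo receptors and the netrin receptors are the proteins that read them. These genes were taken from the count table by symbol: Sema3 to Sema7, Plxna to Plxnd, Nrp1 and Nrp2, the Efna, Efnb, Epha and Ephb genes, Robo1 to Robo4, Slit1 to Slit3, Ntn1, Ntn4 and Ntn5, Unc5a to Unc5d, Dcc and Neo1. The rule used no measured value. It found 69 of the 46078 genes in the table, of which 48 reached a mean of at least 1 read per 1000000 scaled reads (CPM) over the 6 libraries, against 12078 of all genes. The 21 others stayed under that level, and 6 of these (Dcc, Epha7, Epha8, Sema5b, Slit3 and Unc5d) had 0 counts in every library. Efnb3, at a mean of 1.12 CPM, was the gene just above the filter, and Ntn5, at 0.412 CPM, the one just below it.

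The cells were MLE12, an immortalized mouse line of lung epithelial origin, grown to a monolayer. The groups were cells labelled Lingo1 KO, Lingo2 KO, Lingo3 KO and TROY KO, each collected 24 hours after a scratch with a pipet tip, parental (wild-type) cells collected 24 hours after a scratch, and parental cells left without a scratch. Lingo1 to Lingo3 encode leucine-rich repeat membrane proteins and TROY, the product of Tnfrsf19, is a member of the tumour necrosis factor receptor family. The Lingo1 protein and TROY are known from the nervous system as partners in receptor complexes that restrain axon growth. Each group was 1 library, so no error between cultures could be measured and no p-value is given. How the knockouts were made, and whether each line grew from 1 cell, is not given in the sources used here, so a difference between a knockout and the parental library is also a difference between lines.

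Semaphorins signal mainly through plexins. The secreted class 3 semaphorins reach plexins with the help of a neuropilin, while the membrane-bound classes bind plexins directly, and plexins then act on small GTPases and the actin skeleton. Ephrins and Eph receptors are both held at the cell surface, so they signal between touching cells, and the ephrin-bearing cell can respond as well as the Eph-bearing one. Outside the nervous system the same proteins take part in vessel growth, lung branching and the sorting and movement of epithelial cells.

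Between 28109825 and 30776294 reads per library were assigned to genes, and the number of genes with a count ranged from 19206 to 20307. The epithelial genes Cdh1 (between 602 and 992 CPM) and Krt8 (between 309 and 505 CPM) and the lung factor Nkx2-1 (between 160 and 205 CPM) were well expressed in all 6 libraries, and the surfactant gene Sftpb lay between 35.6 and 164 CPM. Other defining genes were absent or nearly so: Sftpd had 0 counts throughout, Sftpa1, Lamp3, Slc34a2 and Cldn7 had at most 3, and Krt18 had at most 14. The targeted transcripts do not check the labels: Lingo1 stood at 57.0 CPM in Lingo1 KO, 52.0 in Lingo2 KO, 51.3 in Lingo3 KO and 34.7 in TROY KO cells, against 24.5 in scratched and 27.6 in unscratched parental cells, while Lingo2 and Lingo3 had at most 1 count and Tnfrsf19 at most 4 in any library. The scratched parental library stood apart in endothelial genes: Tie1 had 52 counts, Cdh5 20 and Cldn5 11 there, against at most 1 in any other library, and Kdr had 74, against between 12 and 21. Among the guidance genes, Robo4, the endothelial Robo receptor, had 23 counts in that library, against 1 in Lingo2 KO cells and 0 in the others, and Ephb2 had 8 counts there, against 2 in Lingo3 KO cells and 0 in the others. Both fell under the filter and enter a count only where the filter is dropped, and the main results are given against the unscratched parental library as well.

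Folds are ratios of TMM-scaled counts. Their intervals are exact 95% Clopper-Pearson intervals, which, like all intervals here, cover counting error only. The words higher and lower are kept for genes that differed by a factor of 2 or more with the interval bound nearest to 1 beyond 1.5, which is called the size rule. All 4 knockout libraries were compared with the same scratched parental library, so the results of these comparisons are not independent of each other. Among all tested genes, the 4 KO libraries lay above both parental ones in 24.2% and below both in 21.9%. Such a separation is therefore common, and where it is named for a gene below it is a description only. In bulk RNA, fewer cells expressing a gene and less RNA per cell cannot be told apart.

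The promoters of 4 of the genes with the clearest differences are shown, Sema3a and Sema6d, which were lower in Lingo3 KO cells, and Efna3 and Efnb1, which were higher there. They are the 250 bases before the start of transcription in RefSeq on build GRCm38.p6, at chr5:13396534-13396783 on the plus strand for Sema3a, chr2:124089719-124089968 on the plus strand for Sema6d, chr3:89322940-89323189 on the minus strand for Efna3 and chrX:99135811-99136060 on the plus strand for Efnb1. Each is written 5′ to 3′ on the strand of its gene, and capitals mark GC boxes (GGGCGG on either strand).
Sema3a: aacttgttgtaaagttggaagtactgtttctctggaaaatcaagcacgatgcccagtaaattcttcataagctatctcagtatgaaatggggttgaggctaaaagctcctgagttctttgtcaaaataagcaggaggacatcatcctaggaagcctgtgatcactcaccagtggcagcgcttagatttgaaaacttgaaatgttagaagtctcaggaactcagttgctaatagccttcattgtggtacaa
Sema6d: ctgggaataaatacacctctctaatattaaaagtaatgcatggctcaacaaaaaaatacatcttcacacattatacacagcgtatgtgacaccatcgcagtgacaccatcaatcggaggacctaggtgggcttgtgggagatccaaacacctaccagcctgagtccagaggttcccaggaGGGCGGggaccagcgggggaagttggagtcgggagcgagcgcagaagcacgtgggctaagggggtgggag
Efna3: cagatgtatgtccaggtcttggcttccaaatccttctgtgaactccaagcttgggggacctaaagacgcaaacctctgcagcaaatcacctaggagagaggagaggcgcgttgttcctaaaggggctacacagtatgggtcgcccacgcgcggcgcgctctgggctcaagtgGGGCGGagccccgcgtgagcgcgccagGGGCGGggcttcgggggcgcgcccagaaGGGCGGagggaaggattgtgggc
Efnb1: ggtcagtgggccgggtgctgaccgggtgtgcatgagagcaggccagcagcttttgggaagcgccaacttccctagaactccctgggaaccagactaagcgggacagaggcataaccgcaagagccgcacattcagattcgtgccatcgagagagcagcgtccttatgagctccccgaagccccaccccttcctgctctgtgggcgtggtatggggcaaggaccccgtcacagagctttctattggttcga
Sema6d and Efna3 have 2 starts in that table, and the first is shown. The Sema3a start lies inside the span that GENCODE gives the gene, far from its beginning at 13125414. Which start these cells use was not measured for any of the 4 genes. Sema3b and Efnb3 were not in the table.

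The Sema3a stretch shown, before that internal start, had 40.8% G and C with 2 CpG dinucleotides and no GC box. The stretch shown for Efna3 had 63.6% with 19 CpG and 3 GC boxes. Sema6d had 52.4% with 9 CpG and 1 GC box, and Efnb1 60% with 13 CpG and none. The median of the 32851 RefSeq promoters of this length was 52.4% with 6 CpG. Both strands were searched for the GC box, for the AP-1 motif TGANTCA and for the TATA motif TATAAA, and the last 2 were in none of the 4 promoters; no matches overlapped. Over the whole group, 60 genes had 76 promoters in the table. A GC box was in 54 of them (71.1%), against 32.7% of all promoters. TATAAA was in 2 (2.63%, against 12.4%) and TGANTCA in 3 (3.95%, against 6.75%). A match describes these letters and is not a measured site.

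MLE12 cells expressed a broad set of these genes, and it was led by receptors. On the scale of the authors' deposited RPKM, which is per length and so allows genes to be compared, the most abundant was the class 4 semaphorin receptor Plxnb2, at a mean of 178 RPKM over the 6 libraries, followed by the co-receptor Nrp1 at 155. Unc5b, a netrin receptor, had a mean of 62.6 RPKM, Efnb2, a transmembrane ephrin, 61.0, and Neo1, the receptor neogenin for netrins and RGM proteins, 55.6. Epha2, the Eph receptor of many epithelia, had 50.2. The most abundant semaphorin was Sema4g, a membrane-bound ligand, at 47.8 RPKM, ahead of the secreted Sema3a at 38.3 and Sema3d at 28.4.

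Slits, Robo receptors and netrins were scarce. Slit2, the only Slit above the filter, had a mean of 0.128 RPKM, and Robo2, its most abundant receptor here, 1.87. Ntn1, the founding netrin, had 3.39 RPKM and Ntn4, a netrin of basement membranes, 2.64. All 9 plexins, both neuropilins and all 8 ephrins passed the filter, as did 15 of 20 semaphorins, 7 of 14 Eph receptors, 2 of 4 Robo receptors, 1 of 3 Slits, 2 of 3 netrins and 2 of 6 netrin receptors. Dcc, the classical attractive netrin receptor, was among the genes with no count.

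**Figure D1:**
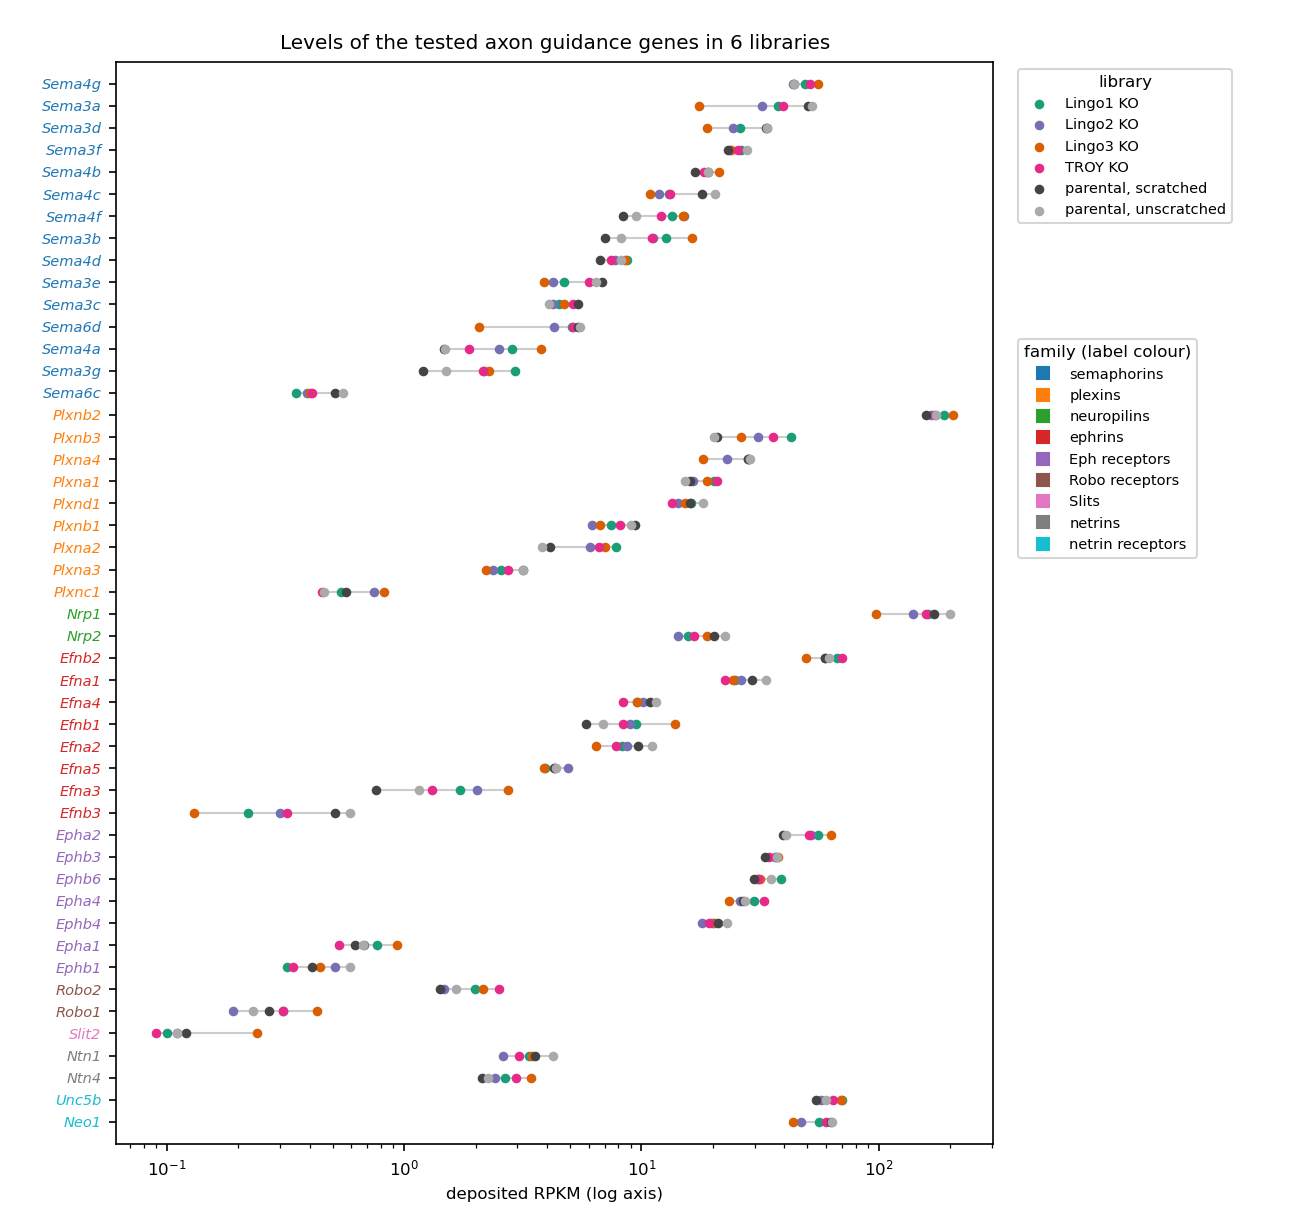
Deposited RPKM (log axis) of the 48 guidance genes above the filter, 1 row per gene grouped by family, with 1 point per library. Most rows are narrow beside the differences between genes; the wide rows include Sema3a, Sema6d and Efnb3, with the Lingo3 KO point at the left end, and Sema4a, Efna3 and Efnb1, with it at the right end.

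Summed over a family, the deposited RPKM of semaphorins, ephrins and plexins varied little, while that of neuropilins varied more. Semaphorins summed to 226 RPKM in Lingo1 KO, 206 in Lingo2 KO, 205 in Lingo3 KO and 233 in TROY KO cells, against 229 in scratched and 243 in unscratched parental cells. Ephrins summed to between 110 and 125 RPKM in the KO libraries, against 121 in the scratched and 131 in the unscratched parental library. Plexins summed to between 267 and 315 RPKM in the KO libraries, against 257 in scratched and 274 in unscratched parental cells. Neuropilins summed to 117 RPKM in Lingo3 KO cells and to between 154 and 177 in the other KO libraries, against 192 in scratched and 223 in unscratched parental cells, so all 4 KO libraries lay below both parental ones. Robo receptors summed to between 1.66 and 2.82 RPKM in the KO libraries, against 1.68 in scratched and 1.88 in unscratched parental cells. Slits summed to 0.24 RPKM in Lingo3 KO cells and to between 0.09 and 0.11 in the other KO libraries, against 0.12 in scratched and 0.11 in unscratched parental cells.

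Single genes moved in both directions, most of all in Lingo3 KO cells. Against scratched parental cells, 7 of the 48 genes passed the size rule in Lingo3 KO cells, 4 higher (Sema3b, Sema4a, Efna3 and Efnb1) and 3 lower (Sema3a, Sema6d and Efnb3). That is 14.6% of the group, where 7.19% of all tested genes passed. Efnb3 reached the filter through the parental libraries, where it is high, so its call adds no support to this share or to later counts that include it. In Lingo1 KO cells 3 were higher (Sema3g, Plxnb3 and Efna3) and none lower, or 6.25% where 3.62% of all genes passed. In Lingo2 KO cells Efna3 alone was higher, or 2.08% where 3.5% of all genes passed. In TROY KO cells none passed, where 2.24% of all genes did. Between scratched and unscratched parental cells none of the 48 passed the rule, where 0.0828% of all genes passed.

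By direction, the 4 higher genes in Lingo3 KO cells were 8.33% of the group, where 4.63% of all genes were higher, and the 3 lower genes were 6.25%, where 2.56% of all genes were lower. The 3 higher genes in Lingo1 KO cells compare with 1.95% of all genes higher there and 1.67% lower, and the single higher gene in Lingo2 KO cells with 2.12% higher and 1.38% lower. Each gene is 2.08% of the group, so the shares rest on few genes, and Efnb3, 1 of the 3 lower genes, adds no support. At a lower limit, a factor of 1.5 with an interval clear of 1, 9 genes passed in Lingo1 KO cells (18.8%, where 11.7% of all genes did), 10 in Lingo2 KO cells (20.8%, where 11.5%), 21 in Lingo3 KO cells (43.8%, where 19.3%) and 6 in TROY KO cells (12.5%, where 9.09%). At that limit Sema3b, Sema3g and Efna3 passed upward in all 4 KO libraries, or 6.25% of the group. That is near the 5.53% of all genes that passed in all 4, upward or downward. Efna3 was the 1 gene past that limit with the scratch, or 2.08% of the group, where 0.985% of all genes passed in either direction.

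**Figure D2:**
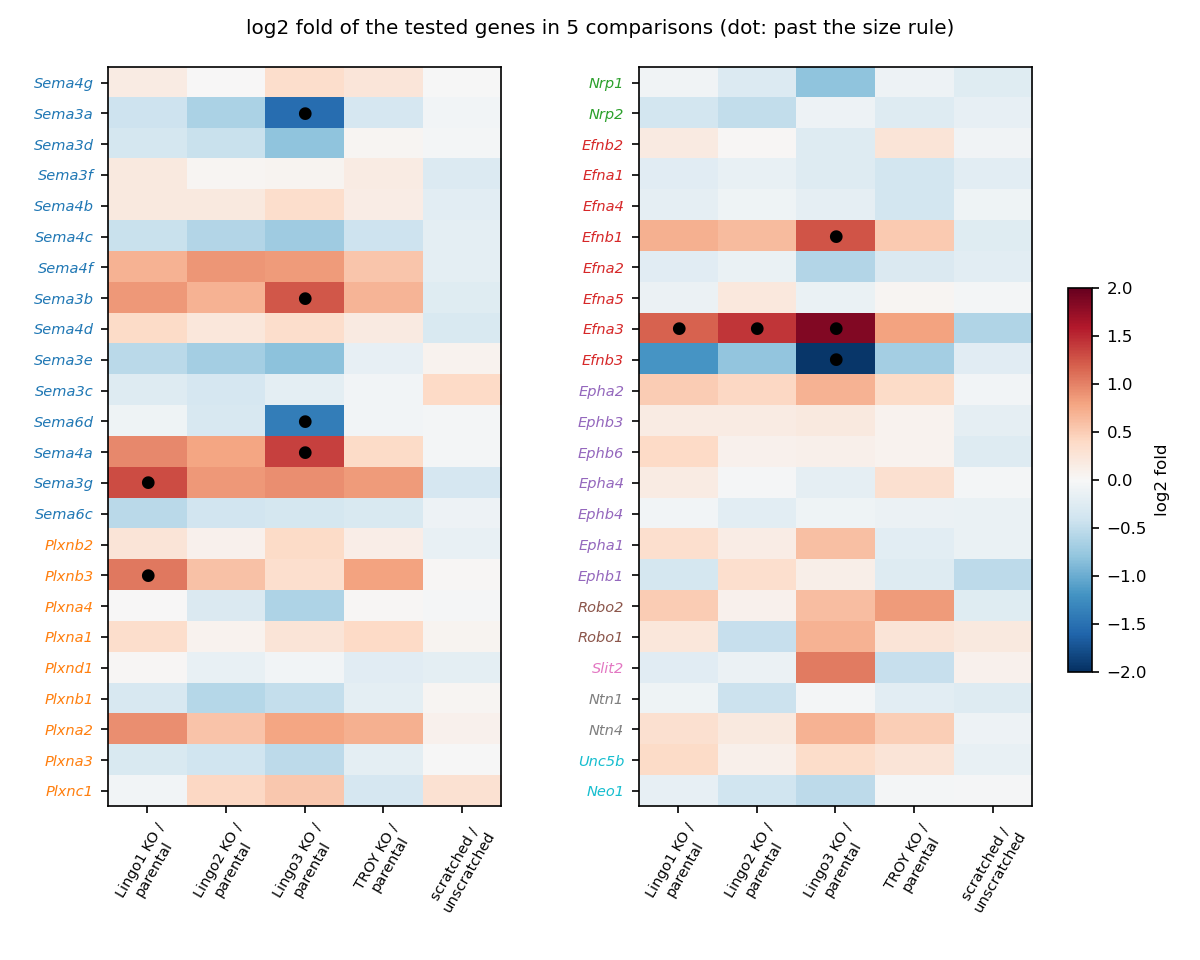
log2 fold of the 48 guidance genes (rows, coloured by family) in the 4 KO comparisons with scratched parental cells and in the comparison of scratched with unscratched parental cells (columns); red is higher and blue lower, and a dot marks a gene past the size rule. There are 7 dots in the Lingo3 KO column, 3 in Lingo1 KO, 1 in Lingo2 KO and none in the others.

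Sema3a, the secreted semaphorin known for collapsing growth cones through neuropilin-1 and A-type plexins (ENSMUSG00000028883, chromosome 5, 13125414 to 13602565), stood at 226 CPM in Lingo1 KO, 194 in Lingo2 KO, 105 in Lingo3 KO and 239 in TROY KO cells, against 302 in scratched and 315 in unscratched parental cells. All 4 KO libraries lay below both parental ones, as in 21.9% of all tested genes, and the Lingo3 KO library lay lowest by a wide margin. Sema3a was lower in Lingo3 KO than in scratched parental cells by 2.86-fold (2.75 to 2.98). Within the mutants it was lower in Lingo3 KO than in Lingo1 KO cells by 2.14-fold (2.05 to 2.24) and than in TROY KO cells by 2.27-fold (2.17 to 2.36), where 0.339% and 0.48% of all genes were lower. Against Lingo2 KO cells the ratio of 1.84 (1.77 to 1.93) missed the rule.

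Sema6d, a membrane-bound semaphorin that binds Plxna1 (ENSMUSG00000027200, chromosome 2, 124089969 to 124667770), had 33.2 CPM in Lingo1 KO, 28.1 in Lingo2 KO, 13.5 in Lingo3 KO and 33.7 in TROY KO cells, against 35.1 in scratched and 36.0 in unscratched parental cells. Here the Lingo3 KO library alone was far from the rest. It was lower than scratched parental cells by 2.60-fold (2.32 to 2.92), than Lingo1 KO cells by 2.46-fold (2.19 to 2.77), than Lingo2 KO cells by 2.08-fold (1.85 to 2.35), where 0.364% of all genes were lower, and than TROY KO cells by 2.49-fold (2.22 to 2.80). Sema6d was the 1 guidance gene for which a scratched library passed the rule against each of the other 4, or 2.08% of the group, where 1.01% of all genes did so for the Lingo3 KO library and 2.45% for any of the 5.

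Sema3b, a secreted class 3 semaphorin (ENSMUSG00000057969, chromosome 9, 107597674 to 107609229), had 44.0 CPM in Lingo1 KO, 39.2 in Lingo2 KO, 56.9 in Lingo3 KO and 38.7 in TROY KO cells, against 24.2 in scratched and 28.6 in unscratched parental cells. All 4 KO libraries lay above both parental ones, as in 24.2% of all tested genes. The fold over scratched parental cells was 2.35 (2.16 to 2.57) in Lingo3 KO cells, the only KO library past the rule, and between 1.60 and 1.82 in the other 3. Over unscratched parental cells it was 1.99 in Lingo3 KO cells, just short of the rule.

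Sema4a, a membrane-bound semaphorin best known from immune cells and the retina (ENSMUSG00000028064, chromosome 3, 88435959 to 88461182), had 9.24 CPM in Lingo1 KO, 8.14 in Lingo2 KO, 12.3 in Lingo3 KO and 6.15 in TROY KO cells, against 4.73 in scratched and 4.85 in unscratched parental cells. The KO and parental libraries did not overlap, with Lingo3 KO on top and TROY KO nearest to the parental level. The fold over scratched parental cells was 2.59 (2.13 to 3.16) in Lingo3 KO cells. In Lingo1 KO cells it was 1.95 (1.59 to 2.41), which missed the rule.

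Sema3g, a secreted semaphorin that binds neuropilin-2 (ENSMUSG00000021904, chromosome 14, 31217860 to 31230352), had 13.5 CPM in Lingo1 KO, 10.01 in Lingo2 KO, 10.5 in Lingo3 KO and 9.91 in TROY KO cells, against 5.49 in scratched and 6.91 in unscratched parental cells. The 4 KO libraries lay above both parental ones, and here Lingo1 KO was on top. It was higher in Lingo1 KO than in scratched parental cells by 2.46-fold (2.04 to 2.97), and the folds of the other 3 lay between 1.80 and 1.91. Against the unscratched parental library no KO library passed the rule for Sema3g.

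The other secreted semaphorins did not pass. Sema3d had 166 CPM in Lingo1 KO, 155 in Lingo2 KO, 121 in Lingo3 KO and 218 in TROY KO cells, against 212 in scratched and 217 in unscratched parental cells. Sema3e, which binds Plxnd1 without a neuropilin, had 32.6, 29.5, 26.9 and 42.2 CPM in the Lingo1, Lingo2, Lingo3 and TROY KO libraries, against 47.2 in scratched and 44.9 in unscratched parental cells. Both were at their lowest in Lingo3 KO cells, with folds of 0.571 (0.549 to 0.595) and 0.569 (0.522 to 0.621) over scratched parental cells, and TROY KO cells were near the parental level for both. Sema3c and Sema3f kept within 1.32-fold of each other across all 6 libraries, each taken alone.

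Among the membrane-bound class 4 semaphorins, Sema4f had 55.4 CPM in Lingo1 KO, 63.2 in Lingo2 KO, 62.1 in Lingo3 KO and 50.5 in TROY KO cells, against 34.3 in scratched and 39.3 in unscratched parental cells. Sema4c, a ligand of Plxnb2, had 51.5, 47.1, 43.0 and 52.6 CPM in the same 4 KO libraries, against 70.3 in scratched and 80.5 in unscratched parental cells. The KO libraries lay above both parental ones for Sema4f and below both for Sema4c, with folds between 1.47 and 1.84 for the first and between 0.612 and 0.748 for the second over scratched parental cells. Sema4g, the most abundant semaphorin, varied by 1.27-fold over the 6 libraries, and Sema4b and Sema4d, the ligand of Plxnb1, by 1.28-fold and 1.30-fold.

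**Figure D3:**
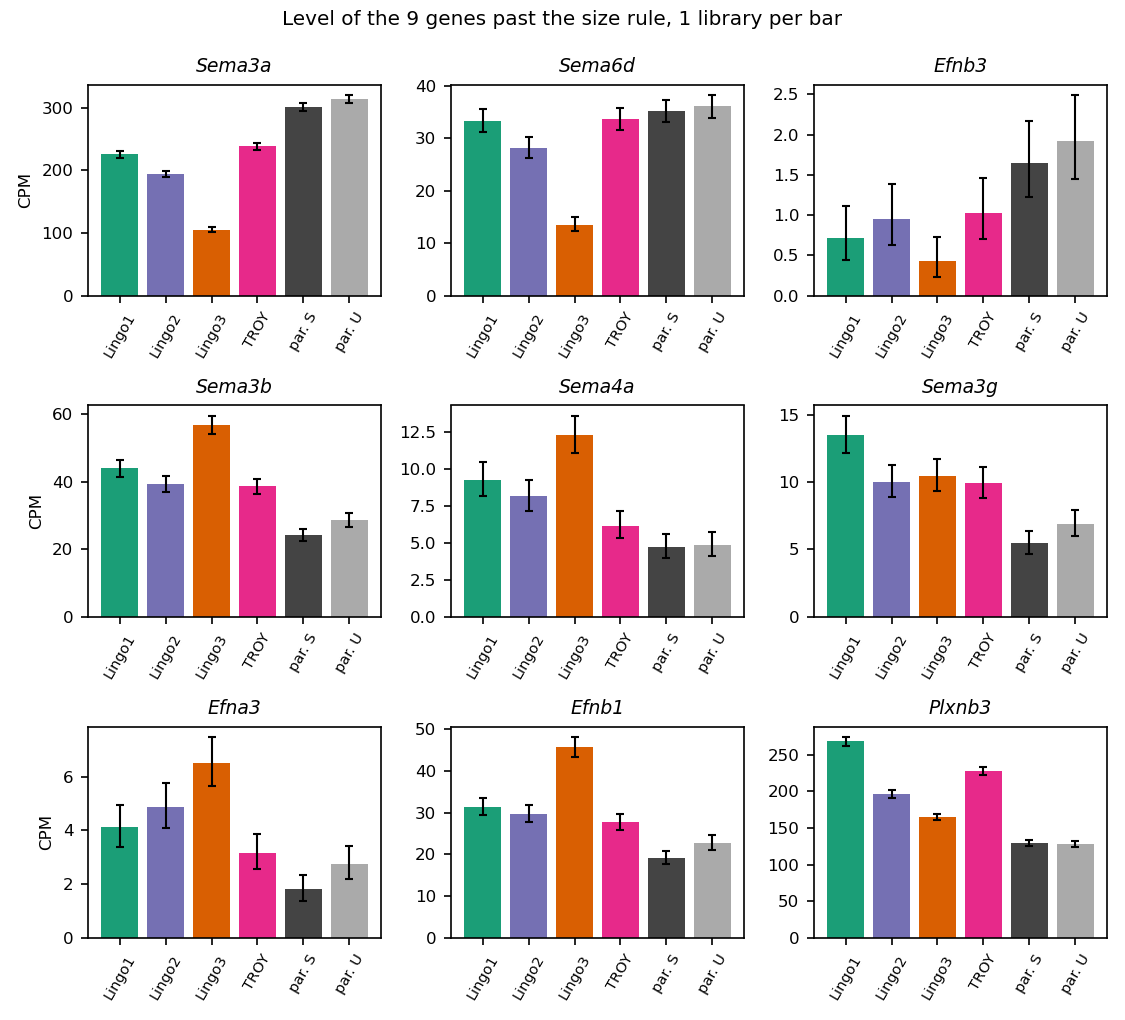
Level in CPM of the 9 guidance genes past the size rule in at least 1 KO library over scratched parental cells, 1 panel per gene and 1 bar per library, with exact 95% Poisson intervals as whiskers (counting error only); par. S is scratched and par. U unscratched parental. Sema3a is at 105 CPM and Sema6d at 13.5 CPM in the Lingo3 KO bar, their lowest, while Sema3b, Sema4a, Efna3 and Efnb1 are at their highest there.

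Of the semaphorin receptors only Plxnb3, a B-type plexin (ENSMUSG00000031385, chromosome X, 73757090 to 73772514), passed the rule against scratched parental cells. It had 269 CPM in Lingo1 KO, 196 in Lingo2 KO, 165 in Lingo3 KO and 228 in TROY KO cells, against 130 in scratched and 128 in unscratched parental cells. All 4 KO libraries lay above both parental ones, in an order of their own in which Lingo3 KO was the nearest to the parental level. Plxnb3 was higher in Lingo1 KO than in scratched parental cells by 2.07-fold (1.99 to 2.15), and the fold was 1.75 (1.68 to 1.82) in TROY KO, 1.51 (1.45 to 1.57) in Lingo2 KO and 1.27 (1.22 to 1.32) in Lingo3 KO cells. Scaled to total counts, the Lingo1 KO fold was 1.96 and missed the rule.

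Plxna2, an A-type plexin, had 87.0 CPM in Lingo1 KO, 67.9 in Lingo2 KO, 78.3 in Lingo3 KO and 74.5 in TROY KO cells, against 45.5 in scratched and 42.8 in unscratched parental cells. The KO libraries again lay above both parental ones, with folds between 1.49 and 1.91 over scratched parental cells, and Lingo1 KO was higher than unscratched parental cells by 2.03-fold (1.90 to 2.18). Plxnb2, the most abundant gene of the group, had folds between 1.06 and 1.31 in the 4 KO libraries. Plxna4 had 366 CPM in Lingo1 KO, 300.1 in Lingo2 KO, 237 in Lingo3 KO and 372 in TROY KO cells, against 365 in scratched and 373 in unscratched parental cells, so Lingo3 KO and Lingo2 KO were its low libraries.

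Nrp1, the co-receptor through which class 3 semaphorins and vascular endothelial growth factor act (ENSMUSG00000025810, chromosome 8, 128358604 to 128503363), had 596 CPM in Lingo1 KO, 518 in Lingo2 KO, 361 in Lingo3 KO and 587 in TROY KO cells, against 628 in scratched and 740 in unscratched parental cells. Lingo3 KO lay lowest and all 4 KO libraries lay below both parental ones. The fold in Lingo3 KO cells was 0.575 (0.562 to 0.589) over scratched parental cells, short of the rule. Against unscratched parental cells Nrp1 was lower by 2.05-fold (2.0 to 2.09), where 6.85% of all genes passed. Sema3a and Nrp1 both had their lowest levels in the Lingo3 KO library, as did Sema3d, Sema6d, Neo1 and other guidance genes. That library was the KO library farthest from scratched parental cells in 46.1% of all genes. Nrp2 was at its lowest in Lingo2 KO cells instead, with 107 CPM in Lingo1 KO, 97.8 in Lingo2 KO, 128 in Lingo3 KO and 114 in TROY KO cells, against 137 in scratched and 154 in unscratched parental cells.

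Efna3, an ephrin tethered to the membrane by a lipid anchor (ENSMUSG00000028039, chromosome 3, 89313899 to 89322965), passed the rule over scratched parental cells in more KO libraries than any other gene of the group. It had 4.11 CPM in Lingo1 KO, 4.88 in Lingo2 KO, 6.53 in Lingo3 KO and 3.16 in TROY KO cells, against 1.81 in scratched and 2.76 in unscratched parental cells, from between 55 and 199 counts in the scratched libraries. All 4 KO libraries lay above both parental ones. The fold over scratched parental cells was 2.28 (1.64 to 3.20) in Lingo1 KO, 2.70 (1.96 to 3.76) in Lingo2 KO and 3.61 (2.67 to 4.96) in Lingo3 KO cells, all past the rule, and 1.75 (1.24 to 2.48) in TROY KO cells, which was not. Against the unscratched parental library only Lingo3 KO was higher, by 2.37-fold (1.82 to 3.11). The scratched parental library was itself the lowest of the 6. Between mutants, Efna3 was higher in Lingo3 KO than in TROY KO cells by 2.07-fold (1.61 to 2.67), where 2.13% of all genes were higher.

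The antisense gene Gm15998 overlaps Efna3 and had between 25 and 39 counts per library. Whether reads were counted by strand is not given in the sources used here, so reads of the 2 genes cannot be told apart. Efna1 and Efna4 lie beside Efna3, all within 66.3 kb on chromosome 3. Efna1 had folds between 0.776 and 0.907 and Efna4 between 0.778 and 0.939 in the 4 KO libraries over scratched parental cells, so these neighbours did not follow Efna3.

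Efnb1, a transmembrane ephrin (ENSMUSG00000031217, chromosome X, 99136130 to 99148991), had 31.4 CPM in Lingo1 KO, 29.8 in Lingo2 KO, 45.8 in Lingo3 KO and 27.7 in TROY KO cells, against 19.2 in scratched and 22.8 in unscratched parental cells. The KO and parental libraries did not overlap and Lingo3 KO was on top. Efnb1 was higher in Lingo3 KO than in scratched parental cells by 2.38-fold (2.16 to 2.63) and than in unscratched parental cells by 2.01-fold (1.83 to 2.21). In the other 3 KO libraries the fold over scratched parental cells lay between 1.44 and 1.63.

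Efnb3, another transmembrane ephrin (ENSMUSG00000003934, chromosome 11, 69554092 to 69560205), had the lowest mean CPM of the 48 guidance genes and reached the filter through its parental libraries, so its call is a description. It had 20 counts in Lingo1 KO, 27 in Lingo2 KO, 13 in Lingo3 KO and 31 in TROY KO cells, against 50 in scratched and 55 in unscratched parental cells. That is 0.722, 0.955, 0.426 and 1.03 CPM in the KO libraries, against 1.64 and 1.92 CPM in the parental ones, and the 2 sets did not overlap. Efnb3 was lower in Lingo3 KO than in scratched parental cells by 3.85-fold, with a wide interval of 2.06 to 7.74. In Lingo1 KO cells the ratio of 2.28 (1.33 to 4.04) missed the rule against scratched parental cells, and passed it against unscratched ones at 2.66-fold lower (1.57 to 4.68), where 3.17% of all genes passed.

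Efnb2, the most abundant ephrin and a ligand of Ephb4 and Epha4, had 324 CPM in Lingo1 KO, 290 in Lingo2 KO, 239 in Lingo3 KO and 341 in TROY KO cells, against 286 in scratched and 299 in unscratched parental cells. The 3 transmembrane ephrins thus differed in Lingo3 KO cells: Efnb1 was higher, Efnb3 was lower, and Efnb2 had a fold of 0.836 (0.810 to 0.862). No Eph receptor passed the rule in any comparison. Epha2 had 220 CPM in Lingo1 KO, 206 in Lingo2 KO, 249 in Lingo3 KO and 202 in TROY KO cells, against 155 in scratched and 162 in unscratched parental cells, all 4 KO libraries above both parental ones, with folds between 1.31 and 1.61. Ephb3 varied by 1.15-fold and Ephb4 by 1.28-fold over the 6 libraries.

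No Slit, Robo or netrin gene above the filter passed the rule in a KO library against either parental library. Robo2 had 17.3 CPM in Lingo1 KO, 12.9 in Lingo2 KO, 18.8 in Lingo3 KO and 22.0 in TROY KO cells, against 12.2 in scratched and 14.4 in unscratched parental cells. It was at its highest in TROY KO cells, with a fold of 1.80 (1.58 to 2.05) over scratched parental cells. Slit2 had 28 counts in Lingo1 KO, 31 in Lingo2 KO, 74 in Lingo3 KO and 26 in TROY KO cells, against 36 in scratched and 32 in unscratched parental cells, and the Lingo3 KO fold of 2.05 (1.36 to 3.15) missed the rule by its lower bound.

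Unc5b had 416 CPM in Lingo1 KO, 342 in Lingo2 KO, 413 in Lingo3 KO and 385 in TROY KO cells, against 320 in scratched and 356 in unscratched parental cells, so KO and parental libraries overlapped. Neo1 had 418, 355, 325 and 453 CPM in the Lingo1, Lingo2, Lingo3 and TROY KO libraries, against 468 in scratched and 475 in unscratched parental cells. The KO libraries lay below both parental ones for Neo1, with Lingo3 KO lowest at a fold of 0.694 (0.676 to 0.712). Ntn1 had 20.0, 15.6, 20.6 and 18.3 CPM in the KO libraries in that order, against 21.1 in scratched and 25.3 in unscratched parental cells.

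Under the filter, Ntn5, a netrin, had 13 counts in Lingo1 KO, 20 in Lingo2 KO, 22 in Lingo3 KO and 10 in TROY KO cells, against 2 in scratched and 5 in unscratched parental cells. Sema7a, a lipid-anchored semaphorin that binds Plxnc1 and integrins, had 7, 10, 27 and 10 counts in the Lingo1, Lingo2, Lingo3 and TROY KO libraries, against 5 in scratched and 12 in unscratched parental cells. Both had most counts in Lingo3 KO cells. At these levels a few counts decide a ratio. The other genes under the filter had at most 15 counts in any library, apart from Robo4.

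The guidance genes varied more between libraries than genes at large. The highest library exceeded the lowest by at least 2-fold in 13 of the 48, or 27.1%, where 11.5% of all tested genes did so. Efnb3, which reached the filter through its parental libraries, is 1 of the 13. The excess was less than 1.5-fold in 20, or 41.7%, where 71.1% of all genes did so. The median absolute log2 fold over scratched parental cells was 0.32 in Lingo1 KO, 0.33 in Lingo2 KO, 0.52 in Lingo3 KO and 0.26 in TROY KO cells, beside 0.19, 0.19, 0.25 and 0.18 over all tested genes. The signed medians were near 0, at 0.09, 0.01, 0.08 and 0.04 for the guidance genes and between 0.01 and 0.02 for all genes, so the folds lay on both sides of 1.

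**Figure D4:**
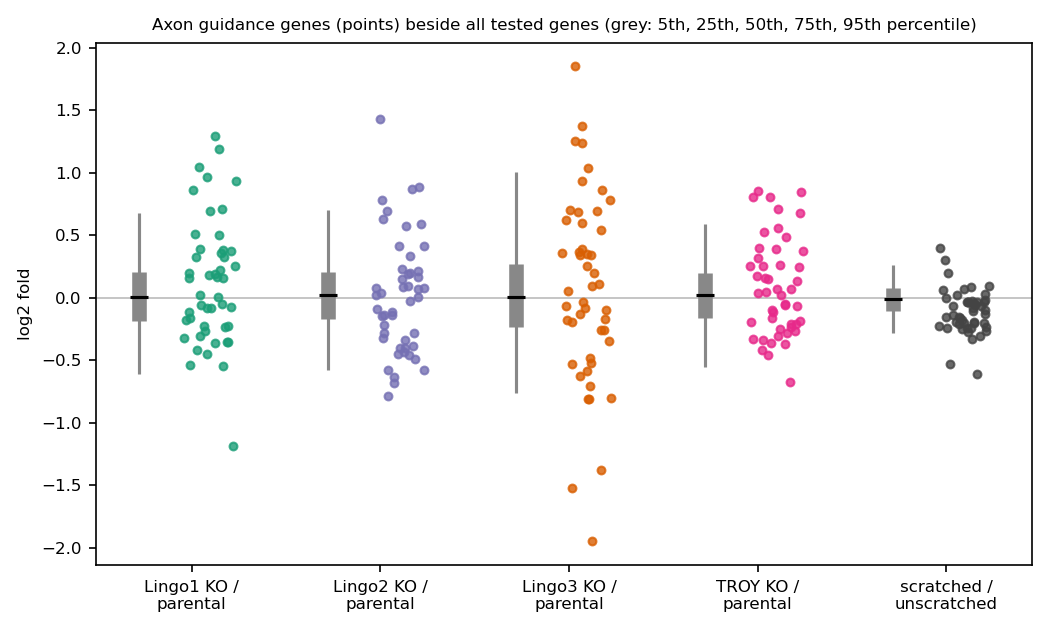
log2 fold of each of the 48 guidance genes (points) in the 5 comparisons beside the 5th, 25th, 50th, 75th and 95th percentile of all 12078 tested genes (grey line, grey box and black bar). The points of the Lingo3 KO comparison reach from -1.95 (Efnb3) to 1.85 (Efna3), and those of the scratch comparison lie mostly below 0.

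In 27 of the 48 genes the 4 KO libraries did not overlap the 2 parental libraries, or 56.2%, where 46.1% of all tested genes did so; this way of counting was chosen after the values were seen. Of these, 11 had all KO libraries above (22.9%, where 24.2% of all genes did) and 16 had them below (33.3%, where 21.9% of all genes did). The genes above were Sema3b, Sema3g, Sema4a, Sema4f, Plxna1, Plxna2, Plxnb3, Efna3, Efnb1, Epha2 and Ntn4. The genes below were Sema3a, Sema3e, Sema4c, Sema6c, Sema6d, Plxna3, Plxnb1, Nrp1, Nrp2, Efna1, Efna2, Efna4, Efnb3, Ephb4, Ntn1 and Neo1. None of the 48 passed the size rule in all 4 KO libraries, where 1.56% of all genes did.

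Lingo3 KO was the KO library farthest from scratched parental cells in 26 of the 48 genes, or 54.2%, where it was so in 46.1% of all genes. Lingo1 KO was farthest in 9 (18.8%, where 14.7% of all genes), Lingo2 KO in 7 (14.6%, where 19.8%) and TROY KO in 6 (12.5%, where 19.4%). Against the unscratched parental library, 7 guidance genes passed in Lingo3 KO cells, namely Sema4a, Efna3 and Efnb1 higher and Sema3a, Sema6d, Nrp1 and Efnb3 lower. There 4.31% of all genes were higher and 2.53% lower. In Lingo1 KO cells 3 passed (Plxna2 and Plxnb3 higher, Efnb3 lower), where 1.8% of all genes were higher and 1.37% lower. None passed in Lingo2 KO cells, where 2.95% of all genes did, and none in TROY KO cells, where 2.25% did.

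The scratched and unscratched parental libraries lay close to each other for this group, though less close than for genes at large. The median absolute log2 fold between them was 0.15 for the 48 genes and 0.09 for all tested genes. With 1 library each, these differences cannot be assigned to the scratch. The median log2 fold of scratched over unscratched parental cells was -0.12 for the 48 genes and -0.01 for all tested genes, and 9 of the 48 folds were above 1, where 46.4% of all tested genes were. The lowest fold was that of Efna3, at 0.656 (0.456 to 0.937), and the highest that of Sema3c, a secreted semaphorin, at 1.32 (1.19 to 1.46). Sema3a, at 0.959 (0.931 to 0.987), and Sema6d, at 0.976 (0.895 to 1.06), differed little between the 2 parental libraries.

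Sema3d, Sema3a and Sema3e are neighbours on chromosome 5. The span between Sema3d and Sema3a is 536 kb and that between Sema3a and Sema3e 423 kb, while Sema3c lies 3318 kb beyond Sema3e. The window of 10 Mb to either side of Sema3a, chosen after the values were seen, held 53 tested genes, 49 of them outside the guidance group. In Lingo3 KO cells the log2 folds over scratched parental cells were -0.81 for Sema3d, -1.52 for Sema3a, -0.81 for Sema3e and -0.19 for Sema3c. Of the 49 other genes, 3 were lower in Lingo3 KO cells (1700109H08Rik, Gm43719 and Gnai1) and none higher, where 2.56% of all tested genes were lower and 4.63% higher. The median log2 fold of the 49 was -0.14, beside 0.01 for all tested genes. In the other KO libraries 2 of the 49 were lower in Lingo1 KO, 1 in Lingo2 KO and 1 in TROY KO cells, and none was higher. Of all tested genes, 1.67% were lower in Lingo1 KO and 1.38% in Lingo2 KO cells, and 2.24% passed in either direction in TROY KO cells.

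Gm43719, an unclassified transcript that begins 1470 bases past the end of Sema3a on the same strand, was low in the same library. It had 16.6 CPM in Lingo1 KO, 15.2 in Lingo2 KO, 5.94 in Lingo3 KO and 15.1 in TROY KO cells, against 23.3 in scratched and 25.9 in unscratched parental cells. It was lower in Lingo3 KO than in scratched parental cells by 3.93-fold (3.33 to 4.65). Gnai1, a G protein subunit 5140 kb from the start of Sema3a, was lower in Lingo1 KO, Lingo2 KO and Lingo3 KO cells, with 5.70, 5.02 and 5.28 CPM, and stood at 7.11 CPM in TROY KO cells, against 11.97 in scratched and 12.1 in unscratched parental cells. Whether the genes of this region are regulated together was not tested.

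**Figure D5:**
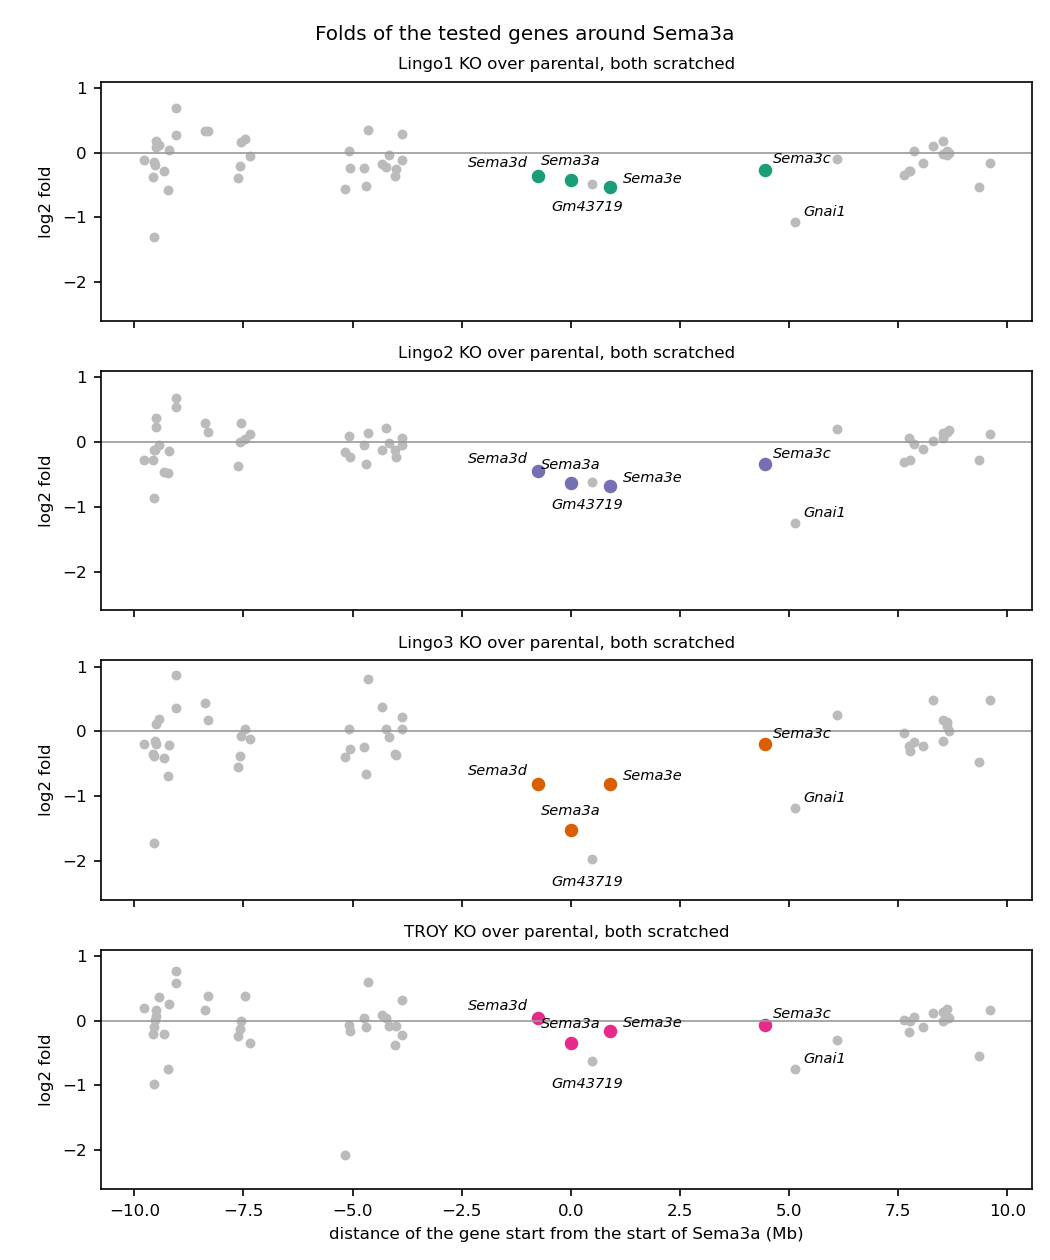
log2 fold of each KO library over scratched parental cells for the 53 tested genes within 10 Mb of the start of Sema3a, against distance in Mb, with the 4 semaphorins coloured and the other genes grey. In the Lingo3 KO panel Sema3a lies at -1.52 and Sema3d and Sema3e at -0.81, while Sema3c, farther away, lies at -0.19.

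Behind the receptors stands a chain of exchange factors, adaptors and actin-binding proteins. Of 60 genes for intracellular, surface and secreted proteins of these pathways, chosen by function, 59 were found and 47 tested. In Lingo3 KO cells 4 were higher (Ablim3, Enah, Ngef and L1cam) and Flrt3 was lower, and in Lingo1 KO, Lingo2 KO and TROY KO cells Ablim3 and Ngef were higher and none lower. Of all tested genes, 4.63% were higher and 2.56% lower in Lingo3 KO cells, 1.95% were higher in Lingo1 KO and 2.12% in Lingo2 KO cells, and 2.24% passed in either direction in TROY KO cells. Ngef and L1cam reached the filter through the libraries in which they are high, Ngef through the KO libraries and L1cam through Lingo3 KO, so their calls add no support to these counts. The median log2 fold of the list was 0.20 in Lingo1 KO, 0.12 in Lingo2 KO, 0.22 in Lingo3 KO and 0.23 in TROY KO cells, where that of all genes lay between 0.01 and 0.02. None passed between scratched and unscratched parental cells.

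Ngef, which encodes the exchange factor ephexin that couples EphA receptors to small GTPases, had 52 counts in Lingo1 KO, 45 in Lingo2 KO, 77 in Lingo3 KO and 39 in TROY KO cells, against 9 in scratched and 8 in unscratched parental cells. The KO and parental libraries were far apart, and the fold over scratched parental cells was 6.34 (3.10 to 14.6) in Lingo1 KO, 5.38 (2.60 to 12.5) in Lingo2 KO, 8.54 (4.27 to 19.4) in Lingo3 KO and 4.38 (2.09 to 10.3) in TROY KO cells. Ablim3, an actin-binding LIM protein, had 7.04 CPM in Lingo1 KO, 6.23 in Lingo2 KO, 14.3 in Lingo3 KO and 5.58 in TROY KO cells, against 2.70 in scratched and 3.07 in unscratched parental cells. Its fold over scratched parental cells was 5.29 (4.17 to 6.79) in Lingo3 KO cells and between 2.07 and 2.61 in the other 3.

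Enah, an actin regulator of the leading edge, was higher in Lingo3 KO than in scratched parental cells by 2.31-fold (2.16 to 2.49), with 83.5 CPM, against 36.1 CPM in each of the parental libraries. L1cam, an adhesion molecule that pairs with neuropilin-1 in Sema3a signalling, had 39 counts in Lingo1 KO, 35 in Lingo2 KO, 87 in Lingo3 KO and 34 in TROY KO cells, against 19 in scratched and 17 in unscratched parental cells. Its Lingo3 KO fold was 4.57 (2.76 to 7.95). Flrt3, a membrane protein that binds Unc5 receptors, had 33.1 CPM in Lingo1 KO, 31.2 in Lingo2 KO, 19.3 in Lingo3 KO and 39.2 in TROY KO cells, against 46.6 in scratched and 49.1 in unscratched parental cells. It was lower in Lingo3 KO than in scratched parental cells by 2.41-fold (2.19 to 2.66), and all KO libraries lay below both parental ones.

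Markers of other cell states moved in the same libraries. Of the 8 fibroblast genes, 4 were tested, and Col1a1 and Pdgfrb were higher in all 4 KO libraries over scratched parental cells, with Pdgfra higher in Lingo3 KO cells only. Pdgfrb reached the filter only through Lingo3 KO cells, and it rests on 52 counts in Lingo1 KO, 37 in Lingo2 KO, 348 in Lingo3 KO and 13 in TROY KO cells, against 1 in scratched and 3 in unscratched parental cells. The summed list lay between 2745 and 3462 CPM in the KO libraries, against 2579 in scratched and 2825 in unscratched parental cells, most of it Dcn, while Col1a2 and Lum had at most 3 counts anywhere. Col1a1 had 170 CPM in Lingo1 KO, 136 in Lingo2 KO, 398 in Lingo3 KO and 146 in TROY KO cells, against 44.8 in scratched and 62.3 in unscratched parental cells. Of the 9 alveolar type II genes, 5 were tested. Sftpb was higher in all 4 KO libraries, Sftpc in the 3 Lingo KO libraries and Napsa in Lingo3 KO cells. The summed list lay between 442 and 623 CPM in the KO libraries, against 350 in scratched and 392 in unscratched parental cells. Of all tested genes, 1.95% were higher in Lingo1 KO, 2.12% in Lingo2 KO and 4.63% in Lingo3 KO cells. In TROY KO cells 2.24% passed in either direction, and 1.56% passed in all 4 KO libraries. These lists are short, so single genes decide their counts.

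Of the 8 neuronal genes, 2 were tested. Tubb3 was higher in Lingo3 KO cells, where 4.63% of all genes were higher, with 38.2 CPM, against 12.5 in scratched and 9.56 in unscratched parental cells. Snap25, Nefl and Stmn2 had 0 counts in every library. The summed neuronal list lay between 228 and 264 CPM in the KO libraries, against 207 in scratched and 183 in unscratched parental cells. Of the 7 endothelial genes only 1, Tek, was tested, and it was higher in Lingo1 KO and Lingo3 KO cells, where 1.95% and 4.63% of all genes were higher. The summed list lay between 161 and 187 CPM in the KO libraries, against 91.9 in scratched and 102 in unscratched parental cells, most of it Tek. Tie1, Cdh5, Cldn5 and Kdr, all under the filter, had most counts in scratched parental cells instead. Of the 6 epithelial genes, 4 were tested. Epcam was higher in Lingo2 KO and Lingo3 KO cells, where 2.12% and 4.63% of all genes were higher. The summed epithelial list lay between 2753 and 2932 CPM in the KO libraries, against 2060 in scratched and 2238 in unscratched parental cells. The 6 immune genes summed to between 1.76 and 3.25 CPM in the KO libraries, against 1.91 in scratched and 1.92 in unscratched parental cells. The part of any of these in the levels of the guidance genes was not tested.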

How the data were processed

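RNA of MLE12 cells, 1 library per group, was prepared with a messenger RNA kit, per the labels' protocols. The authors deposited raw read counts per Ensembl gene, RPKM values and log2 ratios of the 5 comparisons. The submitters' processing notes name Trimmomatic 0.39, STAR, HTSeq and edgeR and build GRCm38; the sources used here do not give their order, settings or other versions, nor the filter behind the deposited RPKM table of 13559 genes. Lines of the count table that name no gene were left out; no-feature reads came to between 4.98% and 8.02% and ambiguous reads to between 3.31% and 4.08% per library.

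Counts were scaled with TMM factors (edgeR 4.0.16, R 4.3.3) across the 6 libraries and expressed as CPM. Of 46078 gene identifiers, 45143 matched GENCODE M21 (GRCm38) for names and positions. The 12078 genes whose mean reached 1 CPM were tested. With 1 library per group no model was fitted: folds are ratios of scaled counts, with an exact 95% Clopper-Pearson interval (scipy 1.17.1), and a 0 was set to a floor of 3 counts, or between 0.0984 and 0.108 CPM. The precision of a level is its exact Poisson interval. For the guidance genes the authors' deposited log2 ratios differed from these by at most 0.0234. The computation was tested on simulated data. DESeq2 1.42.0 size factors, total counts, other filters, other thresholds, the unscratched parental library and the deposited RPKM were tried as alternatives.

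Named genes are the tested ones past the size rule in any of the 5 comparisons (KO over scratched, and scratched over unscratched, parental cells), the most abundant of each of 9 families, Sema3a, Sema3b, Sema4a and Efnb1, the genes under the filter, and up to 4 signalling genes in each direction per comparison; all other genes, such as Plxna2, Sema3d and Neo1, were added after their values were seen, to complete a family or a list. The members and lists were chosen with earlier results of these data known. A gene of the signalling list is not reported here and was left out of its counts and medians.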

Additional observations from a re-analysis of the deposited data

How the results depend on the processing

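No paired analysis was possible because each group has 1 library. Scaling by DESeq2 size factors changed no count, and total counts left 2 genes in Lingo1 KO cells (Plxnb3 lost). Without a filter the counts were 6 in Lingo1 KO (where 3.17% of all genes passed), 4 in Lingo2 KO (3.06%), 10 in Lingo3 KO (6.02%), 2 in TROY KO cells (2.28%) and 2 for the scratch (0.648%), with 1 gene (Robo4) in all 4 KO libraries (1.28%). The added genes were Ephb2, Robo4, Ntn5 and Sema7a, all scarce. Robo4 and Ephb2 were the 2 genes in TROY KO cells and the 2 for the scratch. Their calls rest on the scratched parental library, where they had 23 and 8 counts, against 0 in the unscratched one. They describe that library and say nothing of the KO lines or the scratch. A mean of at least 5 CPM also leaves out Efna3, Efnb3, Sema6c, Plxnc1, Epha1, Ephb1, Robo1 and Slit2. With it, 2 genes passed in Lingo1 KO (where 2% of all genes did), 0 in Lingo2 KO (1.79%), 5 in Lingo3 KO (4.46%) and 0 in TROY KO cells (1.14%), and 0 with the scratch (0.0193%). Dropping or raising the filter changes the size of the group, so these counts are not shares of the 48 genes. With a fold of at least 1.5 and an interval clear of 1, 9 passed in Lingo1 KO, 10 in Lingo2 KO, 21 in Lingo3 KO and 6 in TROY KO cells, 1 with the scratch, and 3 in all 4 KO libraries. With a fold of at least 3 and the near bound beyond 2, 0 passed in Lingo1 KO (where 1.18% of all genes did), 0 in Lingo2 KO (1.04%) and 2 (Efna3 and Efnb3) in Lingo3 KO cells (3.01%). Against the unscratched parental library 0 passed in Lingo2 KO cells, and in Lingo3 KO cells 6 of the 7 genes still passed. No fold of the 18 named genes turned its direction in 270 recomputed values, 236 of which stayed within the counting interval. These values do not cover the change of parental library, with which some small folds did turn. Plxnb2 in Lingo2 KO cells stood at 1101 CPM, against 1038 in scratched and 1155 in unscratched parental cells. In Lingo2 KO cells 25 guidance genes had folds above 1 over scratched parental cells and 15 over unscratched ones. Low counts limit Efnb3, Efna3 and Slit2, and the lack of a second library limits every comparison.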
